A study of Caenorhabditis elegans with 2 samples.

Results

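The regions described here are peaks that lay between a pair of neighbouring protein-coding genes transcribed away from each other, an arrangement called a divergent promoter. They were chosen from the list of 22544 ranked peak records that the authors made from both replicates. A record was a member when its signal, a peak height on the caller's own scale, was 60 or more and its summit lay within 500 bp upstream of annotated 5′ ends of protein-coding genes on both strands. Of the 22544 records 1866 reached that signal, and 175 of those met the position rule. The 175 members lay at 174 gene pairs, since the pair C55A6.1 and C55A6.10 held 2 overlapping records, and they touched 348 genes. Because the signal chose the members, their signals, their reproducibility scores and their replicate signals are given as descriptions and carry no test.

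The peaks came from chromatin immunoprecipitation with sequencing (ChIP-seq), in which an antibody pulls down a chromatin protein and the co-purified DNA is sequenced. The strain was the Caenorhabditis elegans line RW12295, in which the gene Y67H2A.10 on chromosome IV carries the allele st12295, a CRISPR insertion that adds the tags TY1, EGFP and 3xFLAG to the protein. Whole young adults at 63 hours, synchronised by bleaching and L1 starvation, gave sonicated chromatin of 200 to 800 bp that was precipitated with an anti-GFP antibody. The 2 biological replicates form 1 group, so no treatment or genotype is compared, and worms without the tag were not analysed here. Because whole animals were used, a signal present in few cells cannot be told apart from a weak one present in many.

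In a divergent promoter, 2 genes share 1 stretch of upstream DNA, so a factor bound there lies upstream of both, and a peak between them does not say which gene it acts on. Compact genomes such as that of C. elegans hold many such pairs, and they often include housekeeping genes. In C. elegans many transcripts are trans-spliced, which replaces their original 5′ end with a spliced leader, so an annotated 5′ end can lie downstream of the place where transcription starts.

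The sequences under the 6 of the strongest members are shown first, because the protein's signal was highest there (members were passed over on 1 chromosome, as the methods state). Each is the plus strand of RefSeq's WBcel235 genome (ce11), 50 bp either side of the summit, with the minus-strand gene named before the plus-strand gene. Capitals mark, on either strand, the word ACGCGC, the word GCGCGC, the word TGCGTC, the heat shock element core GAANNTTC and the 8-letter words that are introduced with the sequence results.
epc-1/Y111B2A.12, chrIII:12608776-12608876: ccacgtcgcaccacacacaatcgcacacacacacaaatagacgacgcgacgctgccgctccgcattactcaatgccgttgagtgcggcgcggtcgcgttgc
F44E5.4/F44E5.5, chrII:11759415-11759515: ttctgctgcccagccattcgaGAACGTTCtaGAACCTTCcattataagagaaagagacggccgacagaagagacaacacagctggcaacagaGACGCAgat
rpl-15/K11H12.8, chrIV:654877-654977: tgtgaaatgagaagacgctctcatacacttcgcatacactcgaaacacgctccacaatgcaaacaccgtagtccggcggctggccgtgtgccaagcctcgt
rpl-20/Y17G9B.5, chrIV:4750015-4750115: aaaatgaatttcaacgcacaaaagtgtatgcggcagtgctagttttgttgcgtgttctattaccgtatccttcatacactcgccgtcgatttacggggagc
cct-8/Y55F3AR.2, chrIV:1094322-1094422: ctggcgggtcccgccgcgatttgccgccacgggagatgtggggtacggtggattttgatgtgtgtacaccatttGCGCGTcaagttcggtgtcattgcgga
tbb-1/rib-2, chrIII:10742654-10742754: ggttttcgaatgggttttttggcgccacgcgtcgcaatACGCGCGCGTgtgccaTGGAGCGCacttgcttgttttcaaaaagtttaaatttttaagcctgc
Of these 6 windows 3 held a marked word. The window of cct-8 and Y55F3AR.2 held ACGCGC, that of tbb-1 and rib-2 held ACGCGC along with GCGCGC and the word GCGCTCCA, and that of F44E5.4 and F44E5.5 held TGCGTC and 2 copies of the heat shock element core GAANNTTC. The other 3, at epc-1, rpl-15 and rpl-20, held none of the marked words.

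A further 6 windows hold ACGCGC, the word found in the most member windows among those searched when runs of T are set aside, and are shown to compare where that word stands. The interval of T26A8.4 and pdtf-1 is shown whole, from 5′ end to 5′ end.
npp-3/top-2, chrII:11874846-11874946: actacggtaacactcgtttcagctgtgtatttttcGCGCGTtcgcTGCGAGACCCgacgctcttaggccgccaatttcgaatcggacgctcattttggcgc
drr-2/set-16, chrIII:13643694-13643794: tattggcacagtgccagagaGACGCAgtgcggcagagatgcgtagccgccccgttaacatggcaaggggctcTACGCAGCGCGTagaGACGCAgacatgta
T26A8.4/pdtf-1, chrIV:8432894-8433037: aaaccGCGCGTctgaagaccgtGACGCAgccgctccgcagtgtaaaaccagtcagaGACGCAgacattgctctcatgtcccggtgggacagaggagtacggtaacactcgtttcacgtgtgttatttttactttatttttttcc
cct-5/F25F2.1, chrIII:4508545-4508645: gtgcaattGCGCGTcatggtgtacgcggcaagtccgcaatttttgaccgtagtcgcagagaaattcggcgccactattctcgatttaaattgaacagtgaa
imp-2/enpl-1, chrIV:11119197-11119297: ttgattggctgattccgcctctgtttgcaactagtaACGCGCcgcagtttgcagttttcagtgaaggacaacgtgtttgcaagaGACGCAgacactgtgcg
dagl-2/ppm-1.G, chrIII:783405-783505: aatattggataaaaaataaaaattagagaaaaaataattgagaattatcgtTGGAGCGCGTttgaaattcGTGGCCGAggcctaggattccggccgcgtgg
The word TGCGTC accompanied ACGCGC at drr-2 and set-16, at T26A8.4 and pdtf-1, and at imp-2 and enpl-1. The next windows belong to members with a ribosomal protein or chaperone gene. That of rpl-12 is cut where the annotated exon begins.
C47E8.4/hsp-90, chrV:14685749-14685849: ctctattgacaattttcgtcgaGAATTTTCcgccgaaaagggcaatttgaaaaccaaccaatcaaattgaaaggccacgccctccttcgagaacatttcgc
rps-23/dpm-3, chrIV:12391289-12391389: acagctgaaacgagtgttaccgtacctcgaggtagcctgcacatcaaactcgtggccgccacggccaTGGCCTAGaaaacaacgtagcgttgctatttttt
rpl-12/lin-54, chrIV:13240652-13240719: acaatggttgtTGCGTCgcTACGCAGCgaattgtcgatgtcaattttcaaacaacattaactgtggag
hsp-110/rpn-3, chrIII:8447112-8447212: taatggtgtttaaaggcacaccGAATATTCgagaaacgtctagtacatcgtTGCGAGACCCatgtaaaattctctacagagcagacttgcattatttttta
GAANNTTC stood in the windows beside the chaperone genes hsp-90 and hsp-110, as it did between F44E5.4 and F44E5.5. The windows shown for the chaperonin genes cct-8 and cct-5 held no copy.

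Divergent promoters held many more strong records for their length than other sequence. Positions within 500 bp upstream of genes on both strands made up 0.564% of the genome, or 565 kb, and held 9.38% of the records with a signal of 60 or more (95% Wilson interval 8.14 to 10.8). That came to 31.0 records per 100 kb. Positions upstream of a gene on 1 strand held 529 records, or 4.64 per 100 kb, and all remaining sequence held 1162 records, or 1.32 per 100 kb. The deposited lists give no read counts and the depth of the replicates is unknown, so intervals here and later cover counting error over regions or genes.

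The order was the same at each distance from a gene start. Among positions 1 to 100 bp from the nearer 5′ end, divergent sequence held 31.0 records per 100 kb and sequence upstream of 1 strand held 4.42. At 101 to 200 bp the densities were 32.4 and 6.15, at 201 to 300 bp they were 32.8 and 5.69, and at 301 to 400 bp they were 29.9 and 4.09. The divergent density was thus nearly flat out to 400 bp. At 401 to 500 bp it was 6.16, from 1 record, against 2.81. The records that fell short of 60 were spread more evenly, with 41.7 per 100 kb in divergent sequence, 24.5 upstream of 1 strand and 19.98 elsewhere. Of all 411 ranked records in divergent sequence 42.6% reached 60, against 15.9% of 3324 upstream of 1 strand and 6.18% of 18809 elsewhere.

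The genome held 1892 pairs of divergent genes close enough for a summit to qualify, and 174 of them had a member, which is 9.20% (95% Wilson interval 7.98 to 10.6). The share varied with the distance between the 5′ ends. It was 6.86% of 408 pairs up to 250 bp apart, 14.4% of 578 pairs at 251 to 500 bp, 10.1% of 514 pairs at 501 to 750 bp and 2.81% of 392 pairs at 751 to 1000 bp. Close and distant pairs offer less qualifying sequence, and per 100 kb of it the members numbered 29.7, 37.6, 26.5 and 21.6 in the same order. The spread was therefore smaller per length than per pair.

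The median distance to the nearer 5′ end was 141 bp (95% interval of the median 117 to 162, n = 175, quartiles 64.5 and 224.5), and the median distance to the farther one was 284 bp. The nearer gene was on the minus strand at 85 members and on the plus strand at 90. The median distance was 242 bp to the minus-strand 5′ end (95% interval of the median 209 to 257) and 182 bp to the plus-strand one (168 to 221). The summit lay within 50 bp of the midpoint at 69 members, and the median offset from the midpoint was 63 bp, against 75.8 bp for the 236 divergent records under 60. At 32 members the summit lay within 50 bp of a 5′ end. At 100 members both 5′ ends lay within 300 bp.

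**Figure D1:**
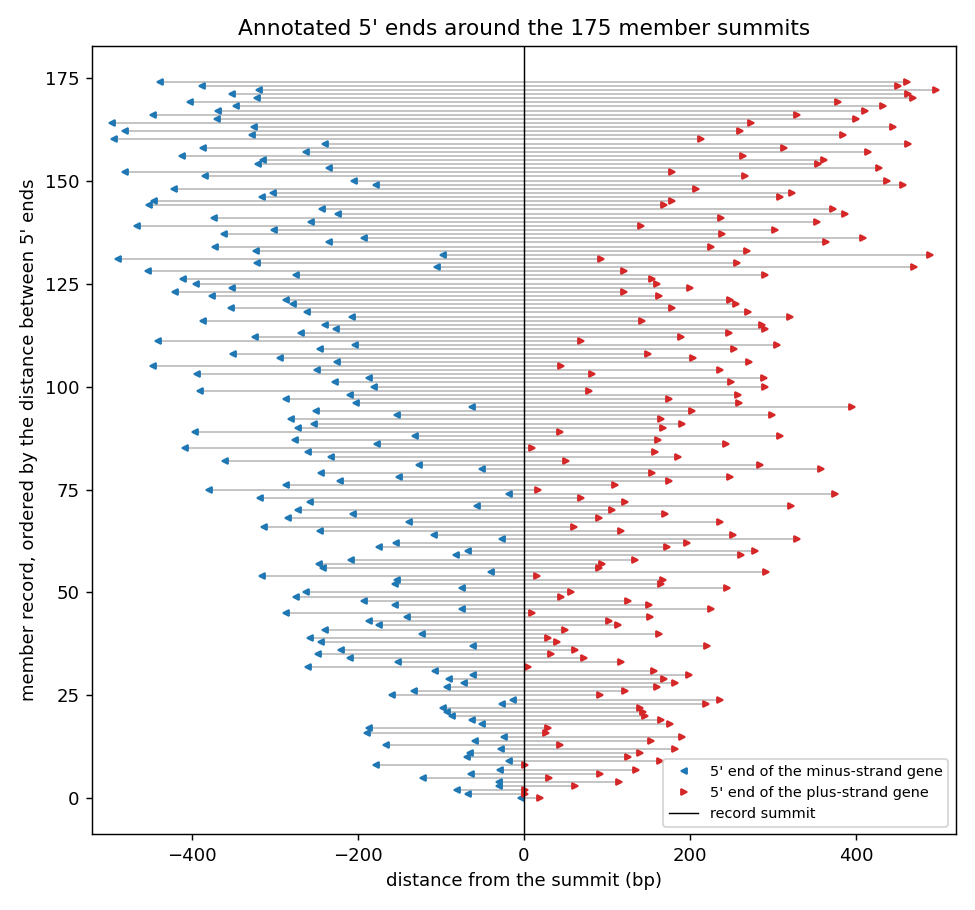
Distance in bp from each of the 175 member summits (vertical line at 0) to the annotated 5′ end of the minus-strand gene (left triangles) and of the plus-strand gene (right triangles), with 1 row per record ordered by the distance between the 5′ ends. The nearer end was on the minus strand for 85 records and on the plus strand for 90, with median distances of 242 and 182 bp.

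The rule's edges were not gaps in the data. The 3 members just inside the signal limit were fat-6 and ZK822.9 at 60.6, the weaker record of C55A6.1 and C55A6.10 at 60.7, and hrde-1 and C16C10.13 at 60.8. The 3 divergent records just outside were R07E5.7 and cku-80 at 59.9, mogs-1 and alh-3 at 59.7, and fbxa-99 and F36G9.13 at 59.5. The members whose farther 5′ end was nearest the 500 bp limit were erfa-3 and math-33, at 497 bp, and sec-61.B and trap-3, at 496 bp.

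The strongest member lay between epc-1, whose product is the enhancer of polycomb homologue of a histone acetyltransferase complex, and Y111B2A.12, with a signal of 503.6 in the list made from both replicates, 268 in the replicate 1 list and 260.1 in the replicate 2 list. The second lay between F44E5.4 and F44E5.5, at 501.8, with 280.0 and 218 in the replicates. The third, between the ribosomal protein gene rpl-15 and K11H12.8, had 462 with 257 and 199.0. These 3 stood apart from the rest, since the fourth, between the ribosomal protein gene rps-19 and hsr-9, a homologue of the DNA damage protein 53BP1, had 334. Over the 170 members listed in both replicates, the signal in the joint list was 1.01 times the sum of the replicate signals (median, 95% interval 0.998 to 1.01).

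Below them the signals fell steadily. The pair rpl-20 and Y17G9B.5 had 310, cct-8, a subunit gene of the chaperonin that folds actin and tubulin, had 299 with Y55F3AR.2, and the beta tubulin gene tbb-1 had 252 with rib-2. C47E8.4 and hsp-90, the gene of the cytosolic Hsp90 chaperone, had 236. A further 9 members had 200 or more, and they joined rab-18, a small GTPase gene, with kbp-4 of the kinetochore, sqv-3 with the vacuolar ATPase gene vha-1, and aka-1 with the ubiquitin-conjugating enzyme gene ubc-6. The others were rps-23 with dpm-3, Y17G7B.20 with the H3K4 methylation gene ash-2, rpl-12 with lin-54 of the DREAM repressor complex, the nucleoporin gene npp-3 with the topoisomerase gene top-2, drr-2 with the MLL-like histone methyltransferase gene set-16, and Y71H2AM.20 with the cytochrome c oxidase gene cox-6B. Just below 200 stood T26A8.4 with pdtf-1 at 195, rheb-1, a GTPase gene of the TOR pathway, with the SR protein kinase gene spk-1 at 192, F09E5.11 with bmy-1 at 181 and czw-1 with F20D12.12 at 178. In all 17 members had a signal of 200 or more, 61 had 100 to 200 and 97 had less than 100. The median was 95.4, against 80.7 for the 529 records upstream of 1 strand and 70.4 for the 1162 other records, all chosen with the same limit.

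**Figure D2:**
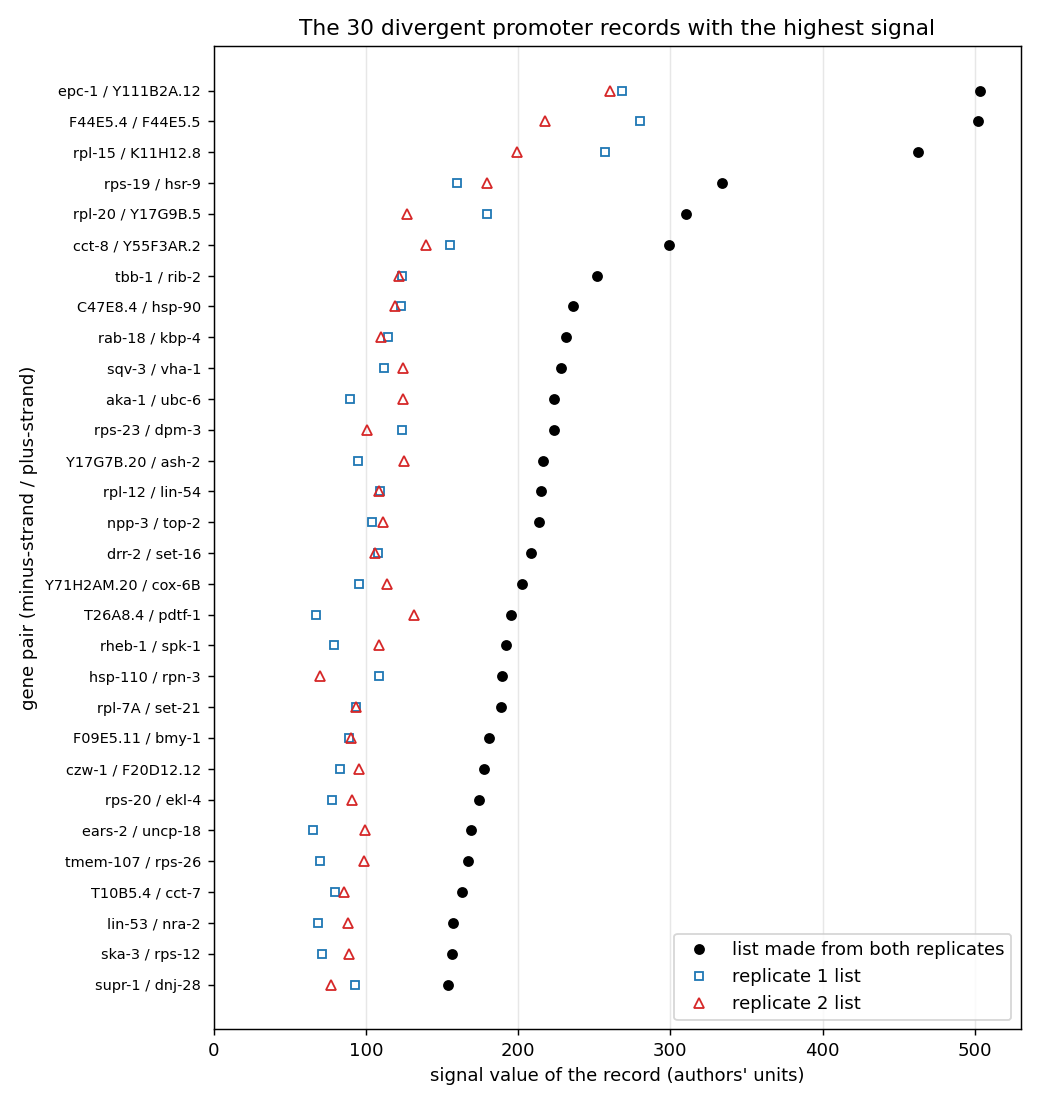
Signal of the 30 strongest members in the list made from both replicates (filled circles) and in the separate lists of replicate 1 (squares) and replicate 2 (triangles), with 1 gene pair per row. The first 3 members lie at 462 to 503.6 and the fourth is at 334, and the replicate values lie near each other for most pairs.

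The genes beside members were grouped by 21 lists built from gene names. Of the 3720 genes with a close divergent partner, 9.35% had a member, and this is the level against which each list is read. Listed genes nearly all carry a gene name, and of the 2152 such genes with a name 11.8% had a member. At least 1 listed gene stood at 99 of the 175 members, and both genes were listed at 21. Listed genes were not counted over the pairs without a member, so these counts do not set members apart. Each list's share covers its genes with a close divergent partner, with 95% Wilson intervals that treat genes as independent although a pair shares its record.

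Genes of the cytosolic ribosome had members most often among the lists with over 10 such genes. Of 48 ribosomal protein genes with a close divergent partner 24 had a member, which is 50% (36.4 to 63.6). They were 12 genes of the large and 12 of the small subunit. The 48 were not divided by subunit, so the share within each subunit is not known. The strongest after rpl-15, rps-19, rpl-20, rps-23 and rpl-12 were rpl-7A with set-21 at 189, rps-20 with ekl-4 at 174, rps-26 with tmem-107 at 167 and rps-12 with ska-3 at 156. In 3 members both genes encode ribosomal proteins. They were rpl-39 and rps-30 at 104, with 36.6 and 68.2 in the replicates, rps-14 and rpl-36 at 86.5, with 40.1 and 46.5, and rps-10 and rpl-24.1 at 77.1, with 25.8 and 50.2. All 3 were higher in the replicate 2 list, and the first 2 passed the reproducibility limit described further on. The summit lay nearer to the partner than to the ribosomal protein gene for 15 of the 24, counting each gene of the double pairs. Mitochondrial ribosomal protein genes stood near the overall level, with 3 of 28, or 10.7% (3.71 to 27.2), namely mrps-35 at 89.2, mrps-7 at 64.2 and mrpl-34 at 62.8.

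Chaperone genes followed. Of 32 heat shock protein and chaperonin genes 13 had a member, or 40.6% (25.5 to 57.7). Besides cct-8 and hsp-90 they included hsp-110, which shared its record with the proteasome gene rpn-3 at 190 (109 and 70.1 in the replicates), cct-7 with T10B5.4 at 163, dnj-28 with supr-1 at 154 and dnj-19 at 126. The genes cct-5 at 120 and cct-1 at 105 encode further chaperonin subunits, and pfd-1 at 96.4 encodes a subunit of prefoldin, which hands unfolded proteins to the chaperonin. The lowest were hsp-6, the mitochondrial Hsp70 gene, at 73.0 and dnj-14 on the X chromosome at 69.5. The Hsp90 cochaperone gene ahsa-1, at 135, and the endoplasmic reticulum Hsp90 gene enpl-1, at 100.3, also had members but belong to no list, and were picked out after their values were seen. F44E5.4 and F44E5.5, which carry sequence names, belong to no list either. Any chaperone role of theirs would therefore be missing from the count and from the order of signals given here.

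The lists of the vacuolar ATPase, of respiration and of protein synthesis beyond the ribosome were short and their intervals wide. Of 6 genes of the vacuolar ATPase, a proton pump, 4 had one, or 66.7% (30 to 90.3), with vha-1 at 228, vha-8 at 141, vha-18, which faces pos-1, at 84.0 and vha-17 at 62.5. Of 23 respiratory chain and ATP synthase genes 5 had one, or 21.7% (9.66 to 41.9), and after cox-6B these were atp-5 at 139.5, atp-3 at 116.5, atp-2 at 95.4 and R53.4, which faces psf-1, at 79.2. The name pattern of that list misses the respiratory complex I genes with newer names, and ndub-8 at 123, ndua-8 at 98.1 and ndua-2 at 90.7 also had members, picked out after their values were seen. Of 23 translation factor genes 5 had one, again 21.7%, led by eef-1A.1 at 136, which faces the replication factor gene rfc-4, and by the release factor gene erfa-3 at 102 and eef-2 at 101.03, with eif-1, which faces vps-24, at 71.5. Of 12 aminoacyl-tRNA synthetase genes 1 had one, ears-2 with uncp-18 at 169.

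Among gene groups of the nucleus and of cell division, chromatin regulators had members at 12 of 89 genes, or 13.5% (7.88 to 22.1). After epc-1 and set-16 these included the histone binding protein gene lin-53, beside nra-2, at 157, the retinoblastoma homologue lin-35 at 126, the histone H2A.Z gene htz-1 at 120 and the pair his-2 and his-1, of histones H3 and H4, at 77.6. Of the 50-base words in the record of his-2 and his-1 1.21% occurred more than once in the genome. The chromatin list also took in metl-1 by its name pattern. Replication and cell cycle genes had 10 of 53, or 18.9%, with an interval (10.6 to 31.4) that lies above 9.35% and includes the 11.8% of named genes, with knl-3 at 138, bub-1, a spindle checkpoint kinase gene that faces lin-61, at 111, and mcm-10, which faces the splicing list's teg-1, at 84.2. Splicing factor genes had 6 of 33, or 18.2% (8.61 to 34.4), with rsp-3 at 109 and snr-1 at 97.3. Nuclear pore and transport genes had 4 of 23, or 17.4% (6.98 to 37.1), with ima-1 at 139.9 and ran-1 at 99.4 after npp-3. Proteasome genes had 4 of 22, or 18.2% (7.31 to 38.5). The remaining 3 after rpn-3 were rpn-9 at 98.5, rpn-2 at 68.6 and rpn-1, which faces ribo-1, at 61.7. The intervals of the splicing, nuclear pore and proteasome lists include 9.35%. The 12.1% of 33 meiosis and repair genes, led by syp-4 of the synaptonemal complex at 123, the 11.1% of 18 RNA polymerase and general factor genes and the 10.3% of 29 germline RNA regulator genes, led by puf-3 at 106, were all close to the overall 9.35%.

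Secretion and membrane traffic genes had members at 10 of 47, or 21.3% (11.99 to 34.9). After rab-18 the strongest was shared by sec-61.B, of the protein-conducting channel of the endoplasmic reticulum, and trap-3, of the associated TRAP complex, at 142, with 80.4 and 58.5 in the replicates. The gene dad-1, of the oligosaccharyltransferase, had 131. Cytoskeleton genes had 5 of 20, or 25% (11.2 to 46.9), with klp-16 at 103 and dnc-1, which faces lsm-7, at 93.2 after tbb-1. By name pattern alone, cap-2 at 119 fell in both the cell cycle and cytoskeleton lists. In the same way spcs-2, which faces mrg-1, at 80.1 fell in both the secretion and cytoskeleton lists. A gene in both lists need not belong to both by function, and the cytoskeleton share counts spcs-2 among its 5 genes.

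Large gene families had few. A list of chemoreceptor, lectin, F-box, MATH, detoxification, nuclear receptor, collagen and neuropeptide genes had 353 genes with a close divergent partner, and 6 had a member, or 1.70% (0.781 to 3.66), an interval that lies below 9.35%. None of the 6 was a chemoreceptor gene. They were nhr-47 at 126, col-71 at 102, math-33 at 102, bath-36 at 90.3, col-38 at 79.3 and fbxb-85 at 73.4. Of those 6 genes 4 shared their record with a gene of another list, namely dnj-19, erfa-3, cyn-7 and rpl-5. The intervals of 3 further lists with low counts include 9.35%. They had a member at 0 of 11 mRNA turnover genes (0 to 25.9), 1 of 23 ubiquitin conjugation genes, or 4.35% (0.772 to 20.99), and 1 of 19 mitochondrial import and protein genes, hsp-6, or 5.26% (0.935 to 24.6).

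**Figure D3:**
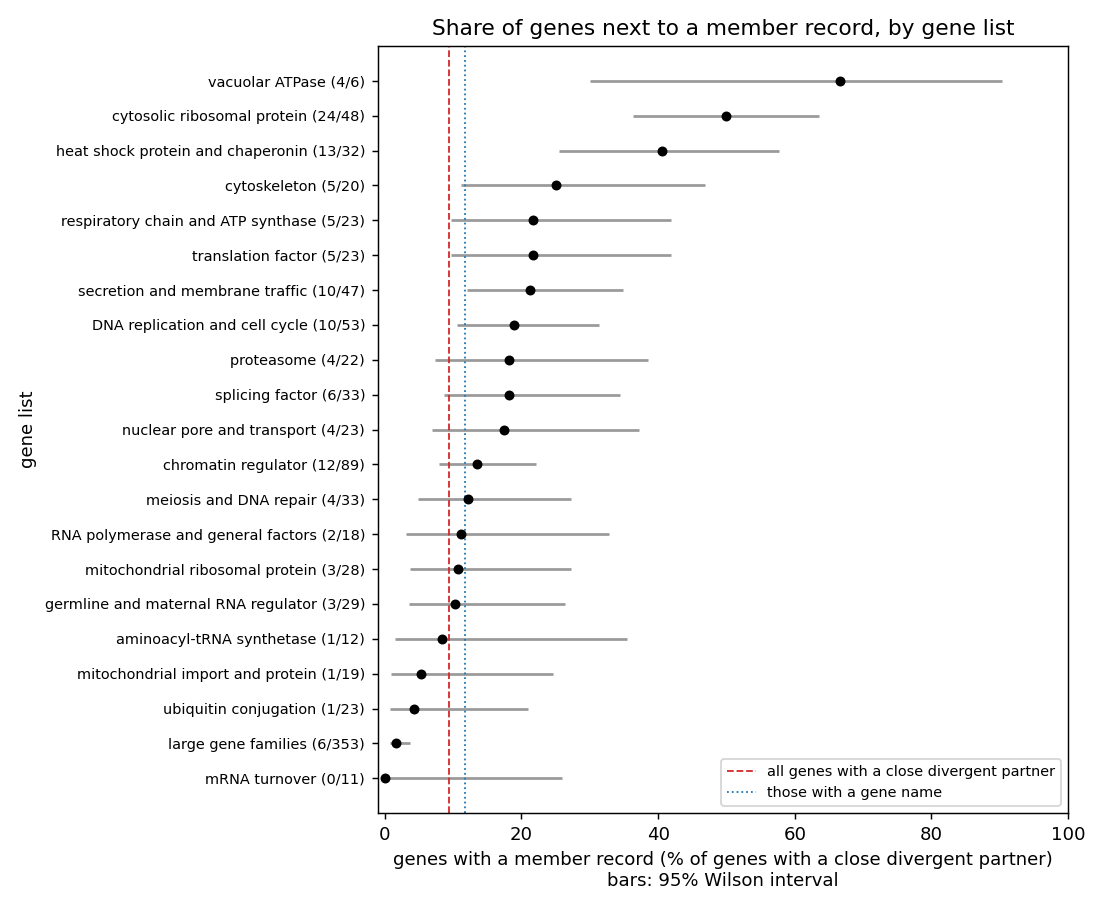
Share of genes with a member among the genes of each list that have a close divergent partner (points, with 95% Wilson intervals and counts in brackets), beside the share over all such genes (dashed line, 9.35%) and over those with a gene name (dotted line, 11.8%). Vacuolar ATPase, cytosolic ribosomal protein and chaperone genes lie farthest to the right, and the large gene families lie near 0.

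The genes beside members more often carried a gene name than those of pairs without a member. Such a name, as opposed to a sequence name, was given to 73.0% of the 348 member genes (95% Wilson interval 68.1 to 77.4) and to 56.3% of the 3372 other genes with a close divergent partner (54.6 to 58.0). Median coding length was 1047 bp (957 to 1170) beside 954 bp (930 to 975), with median exon numbers of 6 and 5.

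The replicates gave most members similar signals. Of the 175 members 172 overlapped a record in the ranked list of replicate 1 and 173 in that of replicate 2, with median signals of 46.7 (quartiles 36.1 and 65.5) and 46.2 (quartiles 35.3 and 66.5). Across the 170 in both lists the median log2 ratio of replicate 2 to replicate 1 was 0.01 (quartiles -0.36 and 0.44), and Spearman's rho was 0.56, a description of records that were chosen on these same reads. The members' median shift in summit position from the joint list was 15 bp in replicate 1 and 19 bp in replicate 2. The 5 members that differed most in rank were all weak. The pair hmgs-1 and F25B4.4 had 17.2 in replicate 1 and 41.4 in replicate 2, F49C12.12 and vha-17 had 19.9 and 41.6, and F57C2.5 and spat-1 had 20.3 and 39.7. The other 2 went the other way, with 35.4 and 18.4 at fat-6 and ZK822.9, and 47.5 and 19.2 at fbxb-85 and hex-3.

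**Figure D4:**
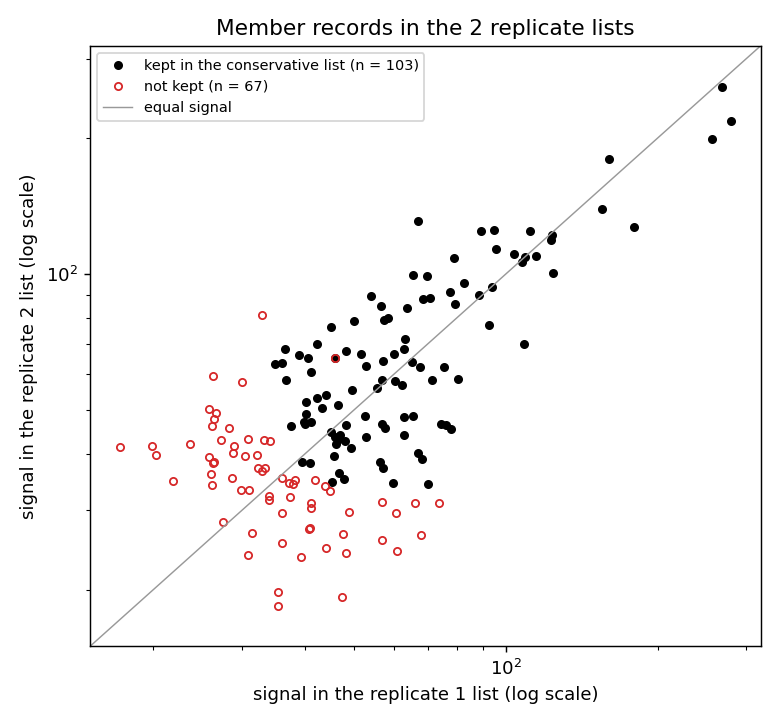
Signal of the 170 members present in both replicate lists, replicate 1 on the horizontal and replicate 2 on the vertical axis, both logarithmic, with filled points for members kept in the conservative list and open points for the rest. Points scatter around the line of equal signal, and the kept members lie towards the upper right.

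Reproducibility followed the signal. The authors' conservative list keeps records with an IDR of 0.01 or less, where the IDR, or irreproducible discovery rate, estimates how many records down to a given rank would fail to recur in the other replicate. It holds 709 records, fewer than the 743 ranked records at or under 0.01, and all 104 members at or under that limit are in it. The reason for the difference was not tested. It kept 3.14% of all 22544 ranked records and 35.7% of the 1866 records past the signal limit. Among the members it kept 104 of 175, or 59.4%, beside 242 of the 529 records upstream of 1 strand and 320 of the 1162 others. Of the 78 members with a signal of 100 or more 76 were kept, of the 58 members at 70 to 100 28 were kept, and of the 39 below 70 0 were, which allows up to 7.69%. At 100 or more the records upstream of 1 strand were kept in 147 of 148 cases. The 2 strong members left out were vps-51 and lin-35, with an IDR of 0.0138 and signals of 32.8 and 81.1 in the replicates, and par-5 and M117.3, with 73.7 and 31.1.

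The lists thresholded within each replicate were shorter. That of replicate 1 overlapped 53 members, or 30.3%, against 17.4% of all records past the signal limit, and that of replicate 2 overlapped 68, or 38.9%, against 21.9%. Of the members 38 overlapped both, 15 that of replicate 1 alone, 30 that of replicate 2 alone and 92 neither. All 17 members with a signal of 200 or more overlapped both.

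The sequence at member summits was rich in G and C and flanked by A and T. Within 50 bp either side of the summit the median GC content was 47.5% (95% interval of the median 46.5 to 48.5, n = 175, range 24.8 to 63.4). The records upstream of 1 strand had the same median, 47.5%, and the other records had 46.5%. Divergent records under 60 had 38.6% (37.6 to 40.6), and the midpoints of the 1718 close divergent pairs without a member had 33.7% (32.7 to 33.7). Midpoints are not summits, and the midpoints of the 174 pairs with a member had 40.6%. The GC-richest window of the same size in each pair's qualifying interval gave medians of 52.5% (51.5 to 54.5) with a member and 43.6% (43.6 to 44.6) without. A highest value tends to rise with the number of windows, and the pairs were not matched for the length of that interval.

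In bins of 25 bp the members' GC content fell from 50.3% beside the summit to 28.4% in the bin centred 137.5 bp towards the minus-strand gene. Across the 175 members Spearman's rho was 0.37 between signal and GC content and 0.06 between signal and the distance separating the 5′ ends, both as descriptions of records above a common signal limit.

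The flanks differed by side. From 51 to 150 bp towards the minus-strand gene, A made up 38.2% ± 9.45 (SD, n = 175) of the bases on the plus strand and T 28.2%. From 51 to 150 bp towards the plus-strand gene, A made up 28.7% and T 38.7% ± 9.59. Reading outwards from the summit along each gene's coding strand, the flank was thus rich in T on both sides. In pairs without a member, measured from the midpoint, A was 34.5% ± 8.13 on the first side and T was 34.2% ± 8.05 on the second, and in divergent records under 60 these were 34.5% and 35.3%.

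**Figure D5:**
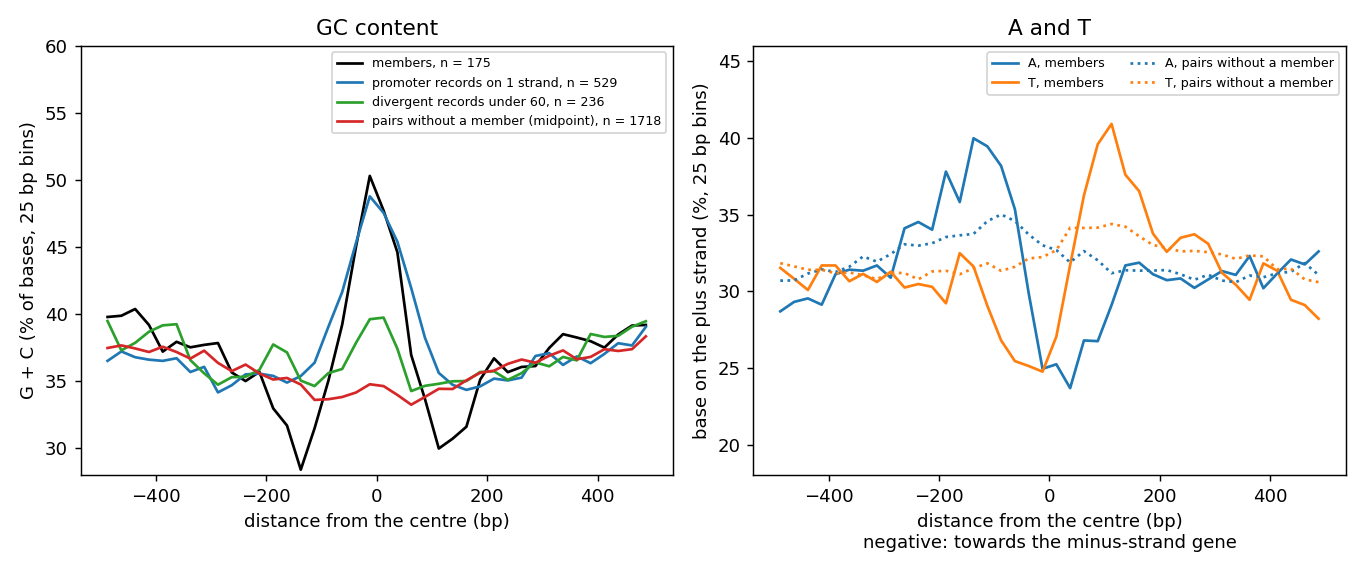
Left, GC content in 25 bp bins against distance from the summit (members, promoter records on 1 strand, divergent records under 60) or from the midpoint (pairs without a member). Right, A and T on the plus strand for members and for pairs without a member, in the orientation with the minus-strand gene on the left; members peak in GC at the centre, with A high on the left and T high on the right.

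Of the 11 words searched on both strands within 50 bp of the summit, ACGCGC stood in 29 members, or 16.6% (95% Wilson interval 11.8 to 22.8). It stood in 20.04% of the records upstream of 1 strand, in 10.2% of divergent records under 60, in 6.02% of other records and in 4.48% of windows of the same length at the midpoints of pairs without a member. GCGCGC, which can overlap it, stood in 14.3% of members, 12.48% of the records upstream of 1 strand and 2.50% of the midpoints. TGCGTC stood in 12.6%, 14.9% and 3.90%, and CCGCCC stood in 10.3%, 6.05% and 3.03%, of the same sets in that order. These words of G and C are more frequent in GC-rich windows, and the midpoint windows were poorer in G and C, so the shares are not matched for composition.

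Among the remaining words the heat shock element core GAANNTTC stood in 14 members, or 8% (4.83 to 13.0). It stood in 4.73% of the records upstream of 1 strand, 9.55% of other records and 6.87% of midpoints. The 14 members included F44E5.4, hsp-90, hsp-110, dnj-19 and dnj-12, and also pairs such as aka-1 with ubc-6 and lin-7 with elof-1. The windows of the chaperone list's cct-8, cct-7, dnj-28, cct-5, cct-1, pfd-1, dnj-29, hsp-6 and dnj-14 held no copy. TATAAA stood in 5.71% of members, 5.86% of the records upstream of 1 strand and 13.7% of midpoints. In the same order the GATA factor word GATAAG stood in 0.571%, 1.51% and 6.23%, and TTTTTT in 32.6%, 30.4% and 46.4%. The midpoint windows were richer in A and T, so these shares are not matched for composition either. The E-box CACGTG stood in 1.14% of members, 5.10% of the records upstream of 1 strand and 2.10% of midpoints. TTCCCGC, the core of E2F sites, stood in 5.14% of members (2.73 to 9.48), 4.16% of the records upstream of 1 strand and 1.16% of midpoints.

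A smaller set of 8-letter words recurred among members. GTCTCGCA, 1 of the 11 words, stood in 13 members, or 7.43% (4.39 to 12.3), against 3.02% of the records upstream of 1 strand and 1.05% of midpoints. The word CGAGACCC, the word GCGCTCCA, the word CTAGGCCA, the word GTGGCCGA and the word GCTGCGTA were picked after the member windows had been compared with the midpoint windows, so their shares describe that choice and support nothing. In that order they stood in 16, 15, 14, 9 and 9 members, and in 1.22%, 1.51%, 0.349%, 0.175% and 0.0582% of midpoints. In records upstream of 1 strand they stood in 3.97%, 3.78%, 3.02%, 1.32% and 0.567%. In divergent records under 60 the shares were 5.51%, 4.66%, 2.54%, 1.69% and 0.424%. At least 1 of these 6 words stood in 59 members, or 33.7%, a share raised by the choice of words from the member windows. It was 14.0% both upstream of 1 strand and in divergent records under 60. GTCTCGCA and CGAGACCC overlap on opposite strands as TGCGAGACCC, and 10 members held both. The windows that follow show the words in place, in capitals as before.
wapl-1/htz-1, chrIV:4445877-4445977: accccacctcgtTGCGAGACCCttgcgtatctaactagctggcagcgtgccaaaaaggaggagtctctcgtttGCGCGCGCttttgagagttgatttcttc
rbc-2/ndua-8, chrIII:2528777-2528877: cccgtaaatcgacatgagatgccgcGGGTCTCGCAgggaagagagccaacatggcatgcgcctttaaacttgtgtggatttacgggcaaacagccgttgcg
ahsa-1/C01G10.7, chrV:15085580-15085680: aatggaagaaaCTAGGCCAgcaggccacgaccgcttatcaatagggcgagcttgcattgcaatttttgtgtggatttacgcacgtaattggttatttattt
cux-7/C07H6.2, chrIII:7520846-7521008: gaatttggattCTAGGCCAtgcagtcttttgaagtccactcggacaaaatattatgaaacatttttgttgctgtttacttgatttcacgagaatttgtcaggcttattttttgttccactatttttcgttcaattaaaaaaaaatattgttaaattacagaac
sqv-3/vha-1, chrIII:9780742-9780842: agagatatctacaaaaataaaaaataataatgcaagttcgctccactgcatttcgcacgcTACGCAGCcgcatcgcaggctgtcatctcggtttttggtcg
rps-14/rpl-36, chrIII:7179773-7179873: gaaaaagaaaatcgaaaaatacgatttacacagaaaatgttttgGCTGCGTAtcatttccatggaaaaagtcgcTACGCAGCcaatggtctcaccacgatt
The joined word TGCGAGACCC appears between wapl-1, of the cohesin release factor, and htz-1, and on the opposite strand between rbc-2 and ndua-8, as it did at npp-3 and hsp-110. Between rps-14 and rpl-36 the word GCTGCGTA occurs on both strands. Of the 9 members with that word, 5 stood beside ribosomal protein genes, beside 21 of all 175 members. The 5 were at rps-19, rpl-12, rpl-39 with rps-30, rps-14 with rpl-36, and rps-10 with rpl-24.1. Other members with the word included those of vha-1 and atp-3. Since the word was picked after these windows were seen, the count describes that choice and supports nothing.

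These words have many copies in the genome. No expected number of copies and no genome-wide masked share was worked out, so the counts do not show an excess. CTAGGCCA has 5720 copies, of which 70.3% lie in sequence that RefSeq soft-masks as repetitive or low in complexity, and CGAGACCC has 4582 copies, 67.6% of them masked. GCTGCGTA, with 1019 copies, and GTCTCGCA, with 1620, were masked in 43.8% and 25.2%. The member summits themselves were masked at 46 of 175, or 26.3% (20.3 to 33.3), against 22.7% upstream of 1 strand and 37.7% at midpoints without a member.

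Few members lay in sequence with exact copies elsewhere. At 13 members, or 7.43% (4.39 to 12.3), some 50-base word of the record occurred more than once in the genome, against 13.8% (11.1 to 17.0) of the records upstream of 1 strand. The share of such words was highest at the stronger record of C55A6.1 and C55A6.10, at 55.9%, followed by W04G5.16 and W04G5.8 at 45.7%, F30A10.9 and usp-48 at 41.7%, ruvb-1 and tofu-1 at 39.7% and cids-2 and phip-1 at 33.2%. The members at C55A6.1, F30A10.9, ruvb-1 and cids-2 shared 50-base words with one another, so reads there may have been placed at the wrong copy and their signals of 129, 66.4, 99.7 and 130 are uncertain. The same doubt holds, to the extent of their shares, for the rest of the 13 members. Among them are czw-1 with F20D12.12 and supr-1 with dnj-28, at 22.7% each. The 2 overlapping records of C55A6.1 and C55A6.10, at 129 and 60.7, both overlapped the same record in each replicate list.

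Most summits lay in sequence with no annotated gene, which the position rule favours because it places them upstream of genes on both sides. The share between genes was 81.1% of members, 70.9% of the records upstream of 1 strand and 40.5% of the other records. The summit was between genes at 142 members, in an exon of a non-coding gene or pseudogene at 17, in an exon of a protein-coding transcript at 9 and in an intron at 7. Genes of snRNA or snoRNA lay within 200 bp at 5 members, or 2.86%, and a tRNA gene at 0 of 175 members, which allows a share of up to 1.71%. Among the records upstream of 1 strand a tRNA, snRNA or snoRNA gene was that near at 6.05%, and among the other records at 16.6%. The 5 members were tmem-107 with rps-26, H27M09.5 with syp-4, chst-1 with C41C4.9, tim-1 with Y75B8A.23, and W04G5.16 with W04G5.8.

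Members were spread over the autosomes and rare on the X chromosome. Chromosome III held 44, IV 37, I 35, V 31 and II 26. The X chromosome held 2, trap-2 with ile-2 at 75.6 and dnj-14 with glit-1 at 69.5, and neither was in the conservative list. Close divergent pairs are themselves rare there, with 86 of 1892, and 2.33% of those 86 had a member (95% Wilson interval 0.640 to 8.09), an interval that ends below the 13.6% of 323 pairs on chromosome III (10.3 to 17.8) and includes the 6.71% of 447 pairs on chromosome V (4.74 to 9.42). Of the records upstream of 1 strand 9.26% lay on X, and of the other records 17.6%. On the autosomes 38.2% of members lay in the arms outside the middle 50% of the chromosome, as did 41.2% of close divergent pairs.

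The tagged gene was not among the genes beside members. Y67H2A.10 had no close divergent partner, and a record with a signal of 61.9 and an IDR of 0.0840 lay upstream of it on 1 strand only.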

How the data were processed

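ChIP-seq was done on 2 biological replicates of 1 group, and the analysis started from 8 peak lists on ce11, which is the assembly WBcel235. The lists were called from the filtered reads of the replicates and a control file, per the deposited text records. No aligner or peak caller is named in those records or the labels, so both were not given in the sources used here. For every record the deposited signal is the authors' peak height, of unstated scale. The deposited score is the authors' rescaled IDR, at most 1000, and the deposited −log10 of the IDR was turned back into the IDR. A further 16 columns, which hold values for the compared replicates in the joint ranked lists, were left unused.

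Annotated 5′ ends came from Ensembl release 115 and sequence from RefSeq's WBcel235 genome. Where several 5′ ends qualified, the nearest on each strand was taken. Replicate records were matched by an overlap of at least 1 bp, taking the highest signal. Intervals are 95% Wilson intervals for shares and exact order-statistic intervals for medians, and beside a count of 0 the share that 3 counts would make is given as what it allows. The steps were checked on simulated data with the Python libraries pandas 2.3.3, NumPy 2.4.6 and SciPy 1.17.1. No test was run, since the signal chose the members and there is 1 group.

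The members, gene lists and words were chosen with earlier results of these data known. Named were the 30 strongest members, up to 4 more of each list, members with both genes in lists, those at the rule's edges and the 5 that differed most between replicates. Some further members, such as those sharing copied sequence or left out of the conservative list, were named after their values were seen. Sequences were shown for the 6 strongest members outside chromosome I, for 6 with the most frequent word other than the T run, and for 4 with a ribosomal protein or chaperone gene, and 6 more were picked after seeing the windows.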

Additional observations from a re-analysis of the deposited data

How the results depend on the processing

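Of 53 values under other settings, 44 stayed within 1.5 times the count of members or within the 95% interval of the value they replace. The 175 members became 112 with a signal limit of 80, 107 when the records of the conservative list replaced the signal limit, and 100 with a window of 300 bp. The share of close divergent pairs with a member, 9.20%, became 5.92% at a limit of 80, 5.50% with the conservative list, 6.82% without members whose summit is soft-masked and 11.3% over pairs up to 500 bp apart. The limit of 80 and the leaving out of members at masked summits or near small RNA genes kept every pair in the total. By construction those shares could not rise. The median distance to the nearer 5′ end fell from 141 to 104.5 bp with the window of 300 bp, which by construction admits no larger distance. The median GC content fell from 47.5% to 41.3% within 100 bp either side of the summit, which takes in the flanks. For each replicate alone, the 1866 records with the highest signal in its own list replaced the signal limit. The number of records was thus held to that of the main setting, which limits how far the counts could move. On that basis the members numbered 153 to 163 and the share of pairs was 8.09% to 8.56%. The distance was 135 to 140 bp, the GC content 47.5% and the share with ACGCGC 14.7% to 21.6%. Outermost 5′ ends and merged records left all 5 values within their limits, as did leaving out members near tRNA, snoRNA or snRNA genes. The other ranked list gave the same 5 values as the main list in every digit. Its values are counted among the 44 but are no separate check. Without read counts the depth, and with it the chance of missing weaker regions, is unknown. No paired analysis was possible because there is 1 group. The lack of untagged worms here means that signal which does not depend on the tagged protein cannot be told apart from signal that does.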
